A study of Saccharomyces cerevisiae with 24 samples.

Results

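The proteasome genes of Saccharomyces cerevisiae were followed through a loss of oxygen, a loss of heme, a loss of the heme-responsive activator Hap1 and a treatment with cobalt. The module held 33 genes chosen by name: 32 subunits of the proteasome and RPN4, which encodes their transcriptional activator. All 33 were measured, among 5449 named genes on the arrays of strain L51 and 5656 on those of strain MHY100. The study placed 24 Affymetrix arrays in 8 groups of 3. The L51 cells all carried the disruption hap1::LEU2. HAP1 cells had the HAP1 gene back on a low-copy ARS-CEN plasmid, and Δhap1 cells carried the empty vector. HAP1 cells were kept aerobic, were moved to an anaerobic chamber for 1.5 h or 6 h, or were treated aerobically with cobalt chloride (400 µM, 6 h). Δhap1 cells were grown in air or for 6 h in the chamber. MHY100 cells carried hem1-Δ100 in both groups, so that their heme was set by the precursor 5-aminolevulinic acid, given at 2.5 µg/ml to the heme-deficient group and at 250 µg/ml to the heme-sufficient group. Values are log2 intensities, and the strains were hybridized to different array types that were normalized separately, so that levels were compared only within a strain.

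The proteasome degrades proteins that have been tagged with chains of ubiquitin. Its core particle is a barrel of α and β rings, in which the β subunits Pre3, Pup1 and Pre2 carry the proteolytic sites and the α rings form the gate. The regulatory particle has a base, in which the Rpt ATPases unfold the substrate, and a lid, in which Rpn11 removes the ubiquitin chain. Rpn4 is a short-lived activator of proteasome genes that is itself destroyed by the proteasome after ubiquitination by Ubr2 with Mub1 and Rad6. When proteasome activity is low, Rpn4 accumulates and proteasome genes are induced.

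The labels were first checked against genes that mark each treatment. HAP1 intensity lay at 5.76 to 6.57 on the Δhap1 arrays and at 9.77 or above on the HAP1 arrays. It lay at 10.23 to 10.98 on the cobalt arrays, whose titles name HAP1 cells although their descriptions name the empty vector. HEM1 lay at 7.49 to 8.60 on the MHY100 arrays and did not separate the heme groups, which carry the same allele. The heme-activated CYC1 did, at 4.43 to 5.33 in heme-deficient and 9.54 to 10.42 in heme-sufficient cells. The replicate 3 array at 1.5 h went against its label, with an intensity of 9.02 for the hypoxic gene ANB1, below the aerobic HAP1 range of 9.63 to 10.46. The hypoxic gene DAN1 was at 8.01 on it, where the other 2 arrays at 1.5 h had 14.15 and 13.57. CYC1 was at 13.72, against 12.58 and 13.15. The replicate 3 array with cobalt had ANB1 at 12.22, where the other 2 had 9.64 and 9.49. CYC1 was at 9.41 on it, against 13.51 and 13.46, and DAN1 at 9.26, against 8.63 and 8.53. At 6 h in HAP1 cells, the replicate 3 array had ANB1 at 13.02, below the 14.31 and 14.33 of the other 2 but above the aerobic HAP1 range. DAN1 was at 12.77 on it, against 14.50 and 14.55, and CYC1 at 10.61, against 8.87 and 10.67. The replicate 2 array of aerobic HAP1 cells differed from the other 2 of its group in signal. On it 67.6% of genes lay above the 95th percentile of the S. pombe probe sets, which serve as background, against 94.3% and 87.5% on the others. The range over the L51 arrays was 66.2% to 94.3%. On all 18 L51 arrays, all 33 genes of the module lay above that background.

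**Figure D1:**
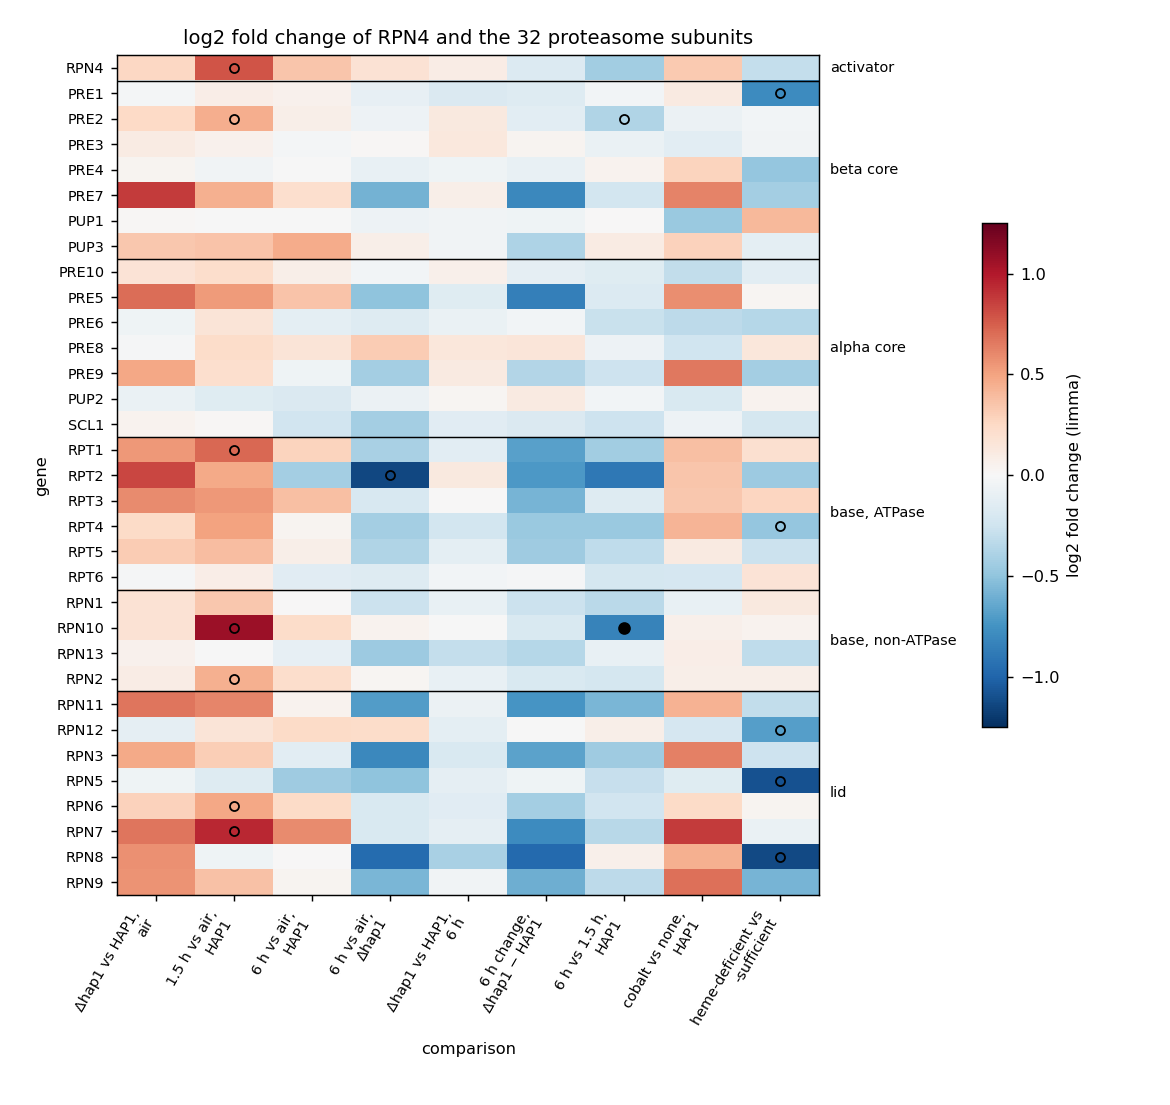
Log2 fold change (colour) of each of the 33 genes (vertical axis, grouped by subcomplex) in each of 9 comparisons (horizontal axis). Filled dots mark an adjusted p under 0.05 and open circles an unadjusted p under 0.05. The filled dot is that of RPN10 in the comparison of 6 h with 1.5 h.

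Over 9 comparisons of 33 genes, 1 value passed an adjusted p of 0.05: RPN10 was lower at 6 h than at 1.5 h without oxygen, as the map of fold changes shows. The median standard error of a subunit's log2 fold change was 0.28 in L51 comparisons of 2 groups and 0.20 in MHY100. For the difference between genotypes in the 6 h change it was 0.40. In HAP1 cells at 6 h, the 95% interval stayed within a 2-fold change either way for 23 of 32 subunits, and in heme deficiency for 26 of 32. For the remaining subunits the interval reached past a 2-fold change. Replicates are said by the study to be separately grown batches. Its text also mentions another yeast strain for a replicate, while the labels name L51 for all 18 oxygen and cobalt arrays and its methods describe no such replicate. Any part of strain in the differences between replicates was not tested. In RNA of whole cultures, a change in some of the cells and a smaller change in every cell cannot be told apart.

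RPN4 was followed first, as the regulator of the other genes. In aerobic HAP1 cells its log2 intensity was 11.83, 10.38 and 11.47 on the arrays of replicates 1, 2 and 3. At 1.5 h without oxygen it was 12.73, 11.34 and 11.95, and at 6 h 12.22, 11.42 and 11.09. Each 1.5 h array lay above the aerobic array of its own number, by 0.90, 0.97 and 0.48, while the groups overlapped. The log2 difference at 1.5 h was 0.78 (SE 0.27, 95% interval 0.20 to 1.37), with an unadjusted p of 0.012 and an adjusted p of 0.27 in limma, and RPN4 was thus not called. With arrays weighted by their quality the difference was 0.75, with an adjusted p of 0.0061 in limma, a setting in which 35.5% of all genes were called. The scatter between replicates was large for RPN4, and the lowest of its 18 values fell on the replicate 2 array of aerobic HAP1 cells. Without that array the difference was 0.53 (limma adjusted p = 0.73). Within hybridization rounds, taken from the order in which the array records place the runs of a day, the difference at 1.5 h was 0.90 and 0.48. In Δhap1 cells RPN4 was at 11.88, 10.89 and 11.68 in air and at 11.94, 11.46 and 11.60 at 6 h, so that the ranges overlapped. At 6 h the differences from air were 0.35 in HAP1 cells (95% interval −0.23 to 0.93, limma adjusted p = 0.55) and 0.18 in Δhap1 cells (limma adjusted p = 0.67). In heme-deficient cells RPN4 was at 7.69, 8.22 and 8.31, against 7.84, 8.47 and 8.79 in heme-sufficient cells. All 3 same-numbered differences were below 0, but the fitted difference of −0.30 (95% interval −0.93 to 0.34) was within the spread between replicates (limma adjusted p = 0.55).

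The base of the regulatory particle held the module's only call. RPN10 encodes a ubiquitin receptor that holds tagged substrates. Its log2 intensity was 11.87, 12.09 and 11.79 in aerobic HAP1 cells. At 1.5 h it was 12.93, 13.35 and 12.66, and at 6 h it was 12.09, 12.50 and 11.83. The lowest of the 1.5 h arrays, 12.66, was above the highest of the other 15 L51 arrays, 12.50, and 31 genes of the whole array showed that order. Between 1.5 h and 6 h RPN10 fell by 0.84 (1.79-fold, SE 0.20, 95% interval −1.27 to −0.41, limma adjusted p = 0.023). The same-numbered differences were −0.84, −0.85 and −0.83. RPN10 was 1 of 32 subunits called in this comparison, in which 15.3% of all genes were called. The call was lost without the replicate block (limma adjusted p = 0.12), and without any one of the replicate 1 and 2 arrays at either time, with limma adjusted p-values of 0.076 to 0.14. In each of these settings 0.0% of all genes were called, and the difference of RPN10 stayed between −0.93 and −0.76. Without the replicate 3 array at 1.5 h or at 6 h it was kept (limma adjusted p = 0.018 and 0.030). In those settings 26.1% and 17.5% of all genes were called. In the round that held both times, that of replicate 2, the difference was −0.85.

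**Figure D2:**
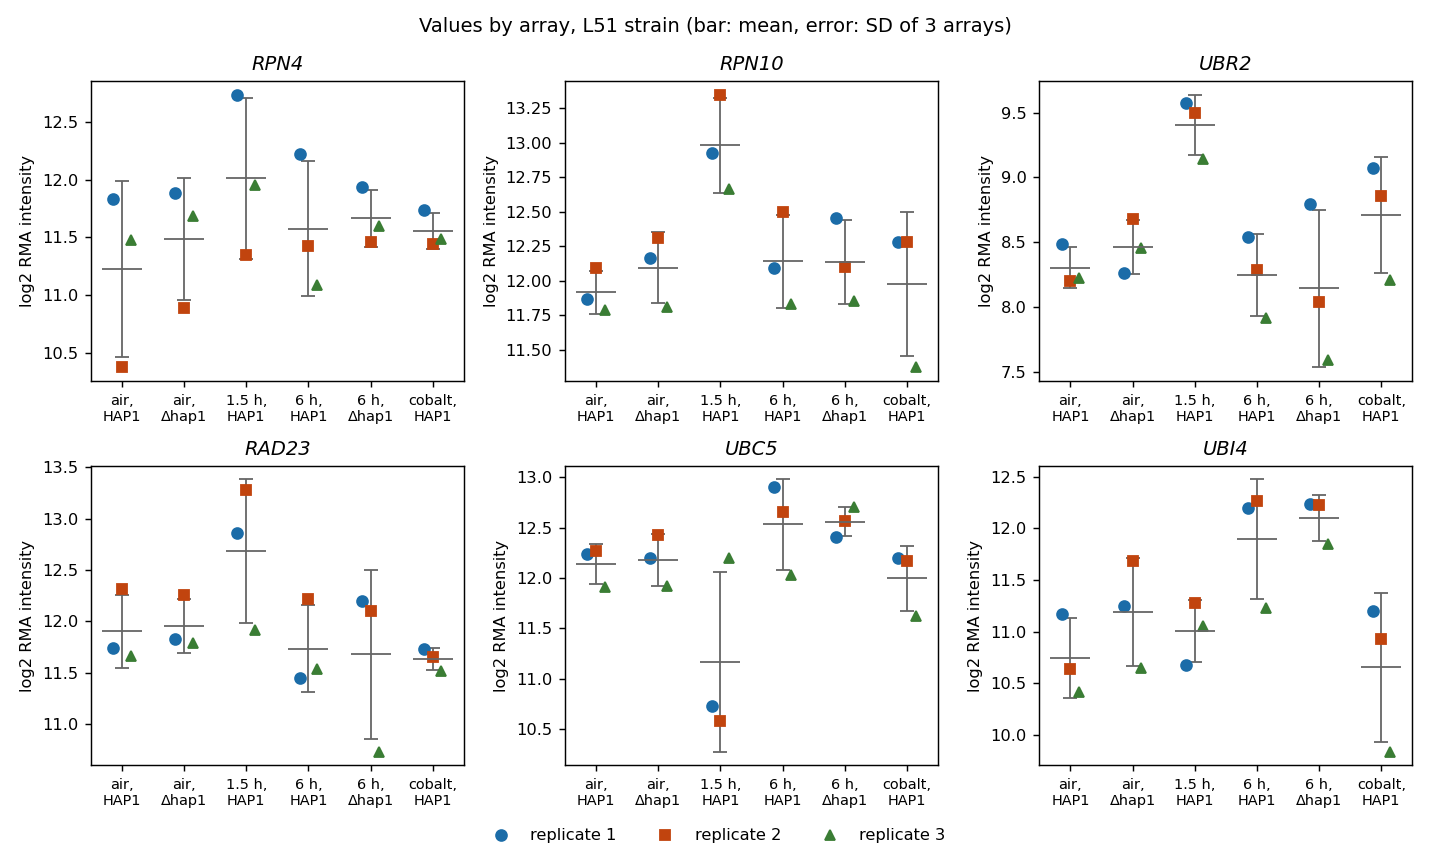
Log2 intensity (vertical axis) of RPN4, RPN10, UBR2, RAD23, UBC5 and UBI4 on each of the 18 L51 arrays, by group (horizontal axis). Points are arrays, bars are group means and error bars 1 SD (n = 3). All 3 arrays at 1.5 h lie above the other 15 for RPN10 and UBR2.

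The difference of RPN10 between air and 1.5 h, although larger than the later one, did not pass the same test. On the log2 scale it was 1.07 (2.09-fold, SE 0.20, 95% interval 0.64 to 1.49), with an unadjusted p of 0.00012 and an adjusted p of 0.10 in limma. It was 1.06, 1.26 and 0.88 for the 3 same-numbered pairs, and the first and last of these were measured within a hybridization round. Without the 1.5 h array of replicate 3, which did not carry the hypoxic ANB1 level, the difference was 1.06 and the limma adjusted p was 0.019. In that setting 9.03% of all genes were called. On the omitted array RPN10 was high all the same. Both comparisons of RPN10 use the 1.5 h arrays and are not independent of each other.

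Between 1.5 h and 6 h, most of the remaining subunits were lower, by less than the test could call. PRE2 was at 13.02, 13.20 and 12.98 at 6 h and differed by −0.38 from 1.5 h (SE 0.17, limma adjusted p = 0.14). RPN10 and PRE2 were the 2 of 32 with an unadjusted p under 0.05, against 33.7% of all genes. For PRE2, PRE6 and RPN10 the 3 arrays at 6 h all lay below those at 1.5 h, or 3 of 32, where 17.7% of all genes showed that order. The median over the subunits was −0.24, near the −0.23 of all genes, with RPT2 at −0.90 and PUP3 at 0.10. RPN4 differed by −0.43 (95% interval −1.02 to 0.15, limma adjusted p = 0.28).

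At 1.5 h without oxygen the other subunits of the base and the core stood mostly above their level in air, by less than the test could call. No subunit passed the adjusted threshold, where 0.0367% of all genes did. Without the replicate 3 array at 1.5 h, 9.03% of all genes were called, and 1 of 32 subunits, RPN10. At an unadjusted p under 0.05, 15.7% of all genes passed in either direction, 652 of 5449 higher and 205 lower. Of 32 subunits 6 were higher and none was lower. These were RPN10, the base scaffold RPN2, the base ATPase RPT1, the lid subunits RPN6 and RPN7 and the catalytic PRE2. Counted in either direction, the share is near that of all genes. PRE2 encodes the chymotrypsin-like site. It was at 13.34, 13.64 and 13.35 at 1.5 h and at 12.88, 12.98 and 13.12 in air, so that the groups did not overlap. RPN10 and PRE2 were the 2 subunits whose 1.5 h arrays all lay above the aerobic arrays, a pattern shown by 6.77% of all genes. The log2 difference of PRE2 was 0.45 (SE 0.17, limma adjusted p = 0.27). The other catalytic subunits differed less, with 0.058 for PRE3, the caspase-like site, and −0.0061 for PUP1, the trypsin-like site. RPN11, the deubiquitinase of the lid, differed by 0.61 (SE 0.37, limma adjusted p = 0.42).

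Over the 32 subunits the median log2 difference at 1.5 h was 0.32, against 0.14 for all genes. Above 0 lay 26 subunits, and 61.4% of all genes. The difference ran from −0.16 for RPN5 and −0.15 for PUP2 up to 0.94 for RPN7 and 1.07 for RPN10. All 6 ATPases of the base were above 0, with a median of 0.49. Much of this shift came with 1 array. RPN7 was at 13.38, 12.55 and 13.38 at 1.5 h and at 13.23, 10.18 and 13.08 in air, so that its 3 same-numbered differences were 0.15, 2.37 and 0.30. Without the replicate 2 array of aerobic HAP1 cells, the median over the subunits was 0.052 and 19 of 32 were above 0. Without the replicate 3 array at 1.5 h it was 0.13, and the difference of RPN4 was 0.79.

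By 6 h without oxygen the median over the subunits of HAP1 cells was near its aerobic level, while the replicates differed. None of 32 subunits was called, against 2.15% of all genes, and none reached an unadjusted p under 0.05, against 17.1%. The median difference was 0.041 (all genes −0.099), from −0.44 for RPN5 and −0.43 for RPT2 to 0.46 for PUP3 and 0.59 for RPN7. Same-numbered arrays gave medians of −0.042, 0.42 and −0.18, the second of them against the replicate 2 aerobic array. Of the catalytic subunits, PRE2 differed by 0.071, PRE3 by −0.024 and PUP1 by −0.0027, and the lid's RPN11 by 0.044. PRE3 was at 13.75, 13.81 and 12.60 at 6 h, against 13.48, 13.36 and 13.40 in air. The intervals of PRE2 (−0.30 to 0.44) and PUP1 (−0.48 to 0.48) were among those that stayed within a 2-fold change. No 6 h array shared a hybridization round with an aerobic array, but the rounds are linked through the other groups. With the round as a block the median was 0.13 and no subunit was called, and 0.0% of all genes were.

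In Δhap1 cells most subunits, like most genes of the array, were below their aerobic level at 6 h. Of 32 subunits 26 had a log2 difference below 0, as did 3801 of all 5449 genes. The median over the subunits was −0.19, against −0.30 for all genes. None was called, where 10.9% of all genes were. RPT2, an ATPase that opens the gate of the core, reached an unadjusted p of 0.022 as 1 of 32, where 30.6% of all genes passed 0.05. It was at 12.52, 11.71 and 11.95 in air and 11.89, 9.93 and 10.93 at 6 h, lower in each pair, with a log2 difference of −1.14 (SE 0.44, limma adjusted p = 0.11). RPN8, a lid subunit that pairs with Rpn11, differed by −0.96 (limma adjusted p = 0.19) and RPN11 by −0.70 (limma adjusted p = 0.21). The lid as a group had a median of −0.54 with 7 of 8 below 0, and the base ATPases −0.39 with 6 of 6. The medians were −0.16 in the α core, −0.12 for the other base subunits and −0.06 in the β core. PRE8 (0.32) and RPN12 (0.23) stood at the upper end. With the round as a block the median was −0.28 and no subunit was called, against 0.661% of all genes.

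The difference between genotypes in the 6 h change was tested directly. None of 32 subunits passed, and 0.0% of all genes did. None had an unadjusted p under 0.05 either, against 1.74% of all genes. The median difference was −0.31 (all genes −0.21), and the lowest values were −0.97 for RPN8 (95% interval −2.45 to 0.51) and −0.86 for PRE5. These intervals are wide, and 13 of 32 stayed within a 2-fold change. Same-numbered arrays gave subunit medians of −0.010, −0.53 and −0.28, and with 1 array left out the median ran from −0.39 to −0.13. PRE5 was at 12.53, 10.22 and 12.32 in aerobic HAP1 cells, lowest on the replicate 2 array. RPN4 differed by −0.17 (SE 0.38, limma adjusted p = 0.95).

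Loss of HAP1 itself was compared in air and at 6 h. In air no subunit was called (0.0184% of all genes were) and none had an unadjusted p under 0.05 (1.39% of all genes). The highest differences were 0.88 for PRE7, a β subunit without a proteolytic site, and 0.84 for RPT2. PRE7 was at 13.12, 12.72 and 12.77 in Δhap1 cells and at 13.10, 10.22 and 12.66 in HAP1 cells. The gap is carried by the replicate 2 aerobic array, and without it the median over the subunits went from 0.21 to 0.040. At 6 h the genotypes were closer, with a median of −0.08 that equalled that of all genes and a range from −0.40 for RPN8 to 0.14 for PRE8. No subunit was called at 6 h (0.0184% of all genes) and none had an unadjusted p under 0.05 (1.52%). RPN4 differed by 0.26 in air and by 0.09 at 6 h, each with an adjusted p of 0.999 in limma.

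Cobalt, which induces part of the hypoxic response in air, gave no call among the subunits, against 0.147% of all genes. No subunit had an unadjusted p under 0.05, against 10.2% of all genes. The median was 0.11 (all genes 0.05), and the subunits ran from −0.46 for PUP1 and −0.32 for PRE6 to 0.69 for RPN9 and 0.88 for RPN7. RPN7 was at 13.15, 13.10 and 12.87 with cobalt, and its same-numbered differences of −0.08, 2.92 and −0.21 were again set by the replicate 2 aerobic array. PUP1 was at 13.19, 13.08 and 12.34 with cobalt and 13.21, 14.16 and 12.62 in air, lower in each pair (limma adjusted p = 0.47). Its widest gap was in the replicate 2 pair, whose aerobic array stood 1.24 above the mean of the other 2 aerobic arrays. RPN4 was at 11.74, 11.45 and 11.48 with cobalt and at 11.83, 10.38 and 11.47 in air, lowest on the replicate 2 aerobic array. The log2 difference was 0.33 (limma adjusted p = 0.59). With 1 array left out it ran from 0.075 to 0.50. Without the replicate 3 cobalt array no subunit was called either, the median was 0.31 and RPN4 differed by 0.35. Without the replicate 2 aerobic array the median was −0.084.

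In heme deficiency the lid had the lowest median of the subcomplexes. No subunit was called over the 6 arrays, against 1.64% of all genes. PRE1, RPN5, RPN8, RPN12 and RPT4 were lower at an unadjusted p under 0.05, or 5 of 32. Of all 5656 genes 749 were lower at that threshold, and 18.7% passed in either direction. PRE1 is a β subunit of the core, RPN5, RPN8 and RPN12 are lid subunits, and RPT4 is a base ATPase. Of the 8 lid subunits 7 were below 0, as were 3222 of all 5656 genes. The lid median was −0.44, against −0.18 for all 32 subunits and −0.06 for all genes. On the replicate 1 heme-deficient array 4 subunits lay more than 1 log2 unit below the mean of the other 2 heme-deficient arrays. These were the lid genes RPN3, RPN5, RPN8 and RPN9, where 5.73% of all genes were as low. The lid median without that array was not computed. RPN12, which joins last as the lid is assembled, was at 6.72, 7.28 and 7.37 in heme-deficient and 7.52, 8.01 and 7.91 in heme-sufficient cells. It differed by −0.69 (1.61-fold, SE 0.22, 95% interval −1.21 to −0.17, limma adjusted p = 0.20). The 2 groups did not overlap for RPN12, RPT4, PRE4 and PRE9, or 4 of 32, against 16.7% of all genes that were lower in this way.

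**Figure D3:**
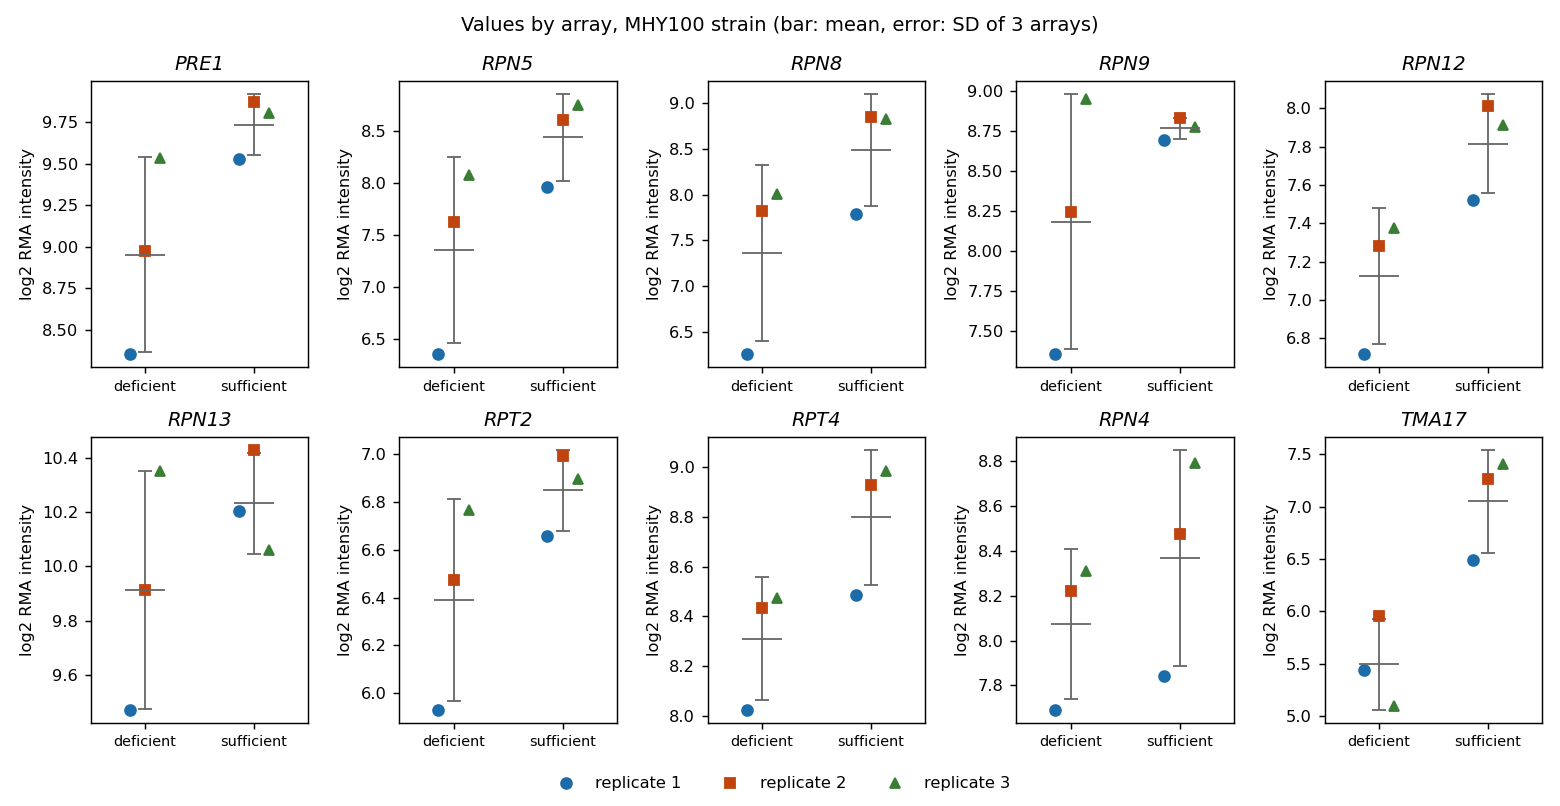
Log2 intensity (vertical axis) on the 6 MHY100 arrays of PRE1, RPN5, RPN8, RPN9, RPN12, RPN13, RPT2, RPT4, RPN4 and the assembly chaperone gene TMA17, by group (horizontal axis). Points are arrays, bars are means and error bars 1 SD (n = 3). The replicate 1 heme-deficient array is the lowest for RPN5, RPN8 and RPN9.

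RPN8 and RPN5 had the lowest fold changes, and both depended on 1 array. RPN8 was at 6.26, 7.82 and 8.01 in heme-deficient and 7.78, 8.85 and 8.83 in heme-sufficient cells. RPN5 was at 6.36, 7.63 and 8.08, against 7.97, 8.60 and 8.75. The replicate 1 heme-deficient array is far below the other arrays for both genes. The log2 differences were −1.12 for RPN8 and −1.09 for RPN5, with limma adjusted p-values of 0.26 and 0.24. Without that array they were −0.57 and −0.59, with limma adjusted p-values of 0.50 and 0.39. The catalytic genes PRE2 and PRE3 differed less, by −0.034 and −0.042. PUP1 stood at the upper end with 0.41 (95% interval −0.05 to 0.86, limma adjusted p = 0.30), followed by RPT3 with 0.27. RPN11 differed by −0.30.

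Of the 6 heme arrays, 5 could be placed in 2 hybridization rounds. With the round as a block, which leaves out the replicate 3 heme-deficient array since its round is not known, 7 of 32 subunits were lower at an adjusted p under 0.05 in limma, where 13.2% of all genes were. These were PRE1, RPN5, RPN8, RPN9, RPN12, RPN13 and RPT2. Within the 2 rounds RPN8 differed by −1.03 and −2.05, RPN5 by −0.98 and −2.001, PRE1 by −0.90 and −1.31 and RPN12 by −0.73 and −0.999. The second value of each rests on the replicate 1 heme-deficient array.

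Genes that act on Rpn4 or beside the proteasome were followed in 3 lists. Of 8 genes in the control of RPN4 and its protein, UBR2 and RAD6 passed in 1 comparison each, in which 15.3% and 10.9% of all genes passed. UBR2, the ligase that marks Rpn4 for destruction, was at 8.48, 8.20 and 8.22 in air and 9.58, 9.50 and 9.14 at 1.5 h, the lowest of which lay above the 9.07 that was highest on the other 15 arrays. It fell by 1.16 between 1.5 h and 6 h (2.23-fold, SE 0.24, limma adjusted p = 0.018), with same-numbered differences of −1.03, −1.22 and −1.22. From air to 1.5 h it differed by 1.10 (limma adjusted p = 0.15). Without the replicate 3 array at 1.5 h the limma adjusted p of that difference was 0.031, and 9.03% of all genes were called. RAD6, the conjugating enzyme that works with Ubr2, was at 11.67, 10.35 and 10.63 in aerobic Δhap1 cells and 10.08, 9.46 and 9.93 at 6 h. It fell by 1.06 (2.08-fold, SE 0.32, limma adjusted p = 0.049), a call lost in 12 of 16 other settings, among them the omission of any 1 of the 6 arrays compared (limma adjusted p 0.096 to 0.17).

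Of 18 genes of ubiquitin supply and delivery, 3 passed between 1.5 h and 6 h, a share near the 15.3% of all genes. UBC5, a stress-induced ubiquitin-conjugating enzyme, rose by 1.36 (limma adjusted p = 0.033) and UBI4, the polyubiquitin gene, by 0.89 (limma adjusted p = 0.048). RAD23, which carries ubiquitinated proteins to the proteasome, fell by 0.95 (limma adjusted p = 0.043). The replicate 3 array at 1.5 h was unlike the others of its group for UBC5 and RAD23. UBC5 was at 10.73 and 10.58 on the first and second 1.5 h arrays and at 12.20 on the last, and RAD23 at 12.85, 13.28 and 11.92. Its same-numbered difference was −0.16 for UBC5, against 2.17 and 2.08 for the others. UBI4 was at 12.20, 12.26 and 11.23 at 6 h and 10.68, 11.28 and 11.05 at 1.5 h. Without the replicate 3 array at 1.5 h the differences were 1.9996 for UBC5, 1.18 for UBI4 and −1.17 for RAD23, with limma adjusted p-values of 0.00034, 0.0098 and 0.016. In that setting 26.1% of all genes were called. Without the replicate block, or without any one of the replicate 1 and 2 arrays at either time, UBC5, UBI4, RAD23 and UBR2 were not called (limma adjusted p 0.071 to 0.22), nor was any other gene of the array. Against air UBI4 differed by 1.15 in HAP1 cells (limma adjusted p = 0.053) and by 0.91 in Δhap1 cells (limma adjusted p = 0.055). CDC48, the segregase, differed by 0.38 at 1.5 h and 0.45 in heme deficiency, with limma adjusted p-values of 0.38 and 0.25.

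Of 15 assembly chaperones and associated factors, 1 passed, in heme deficiency, against 1.64% of all genes. TMA17, a chaperone of the ATPase ring, was at 5.44, 5.96 and 5.10 in heme-deficient and 6.49, 7.26 and 7.41 in heme-sufficient cells. It fell by 1.56 (2.94-fold, SE 0.30, limma adjusted p = 0.0495), at the edge of the threshold, and was not called in 7 of 14 other settings, among them those without replicate 1 or 3 of the heme-deficient arrays or replicate 2 or 3 of the heme-sufficient arrays (limma adjusted p 0.071 to 0.23). Over the 14 settings the log2 difference ran from −1.84 to −0.94. The heme-deficient values of TMA17 are low, below the all-gene medians of those arrays (6.82, 6.92 and 6.97). No background level was available for the MHY100 arrays. Of the 15, 14 were below 0 in heme deficiency, as were 3222 of all 5656 genes, and 6 did not overlap between groups and were lower, against 16.7% of all genes. UMP1, the chaperone that matures the core, differed by −0.30 (limma adjusted p = 0.48) there and by 0.54 (limma adjusted p = 0.61) at 1.5 h.

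**Figure D4:**
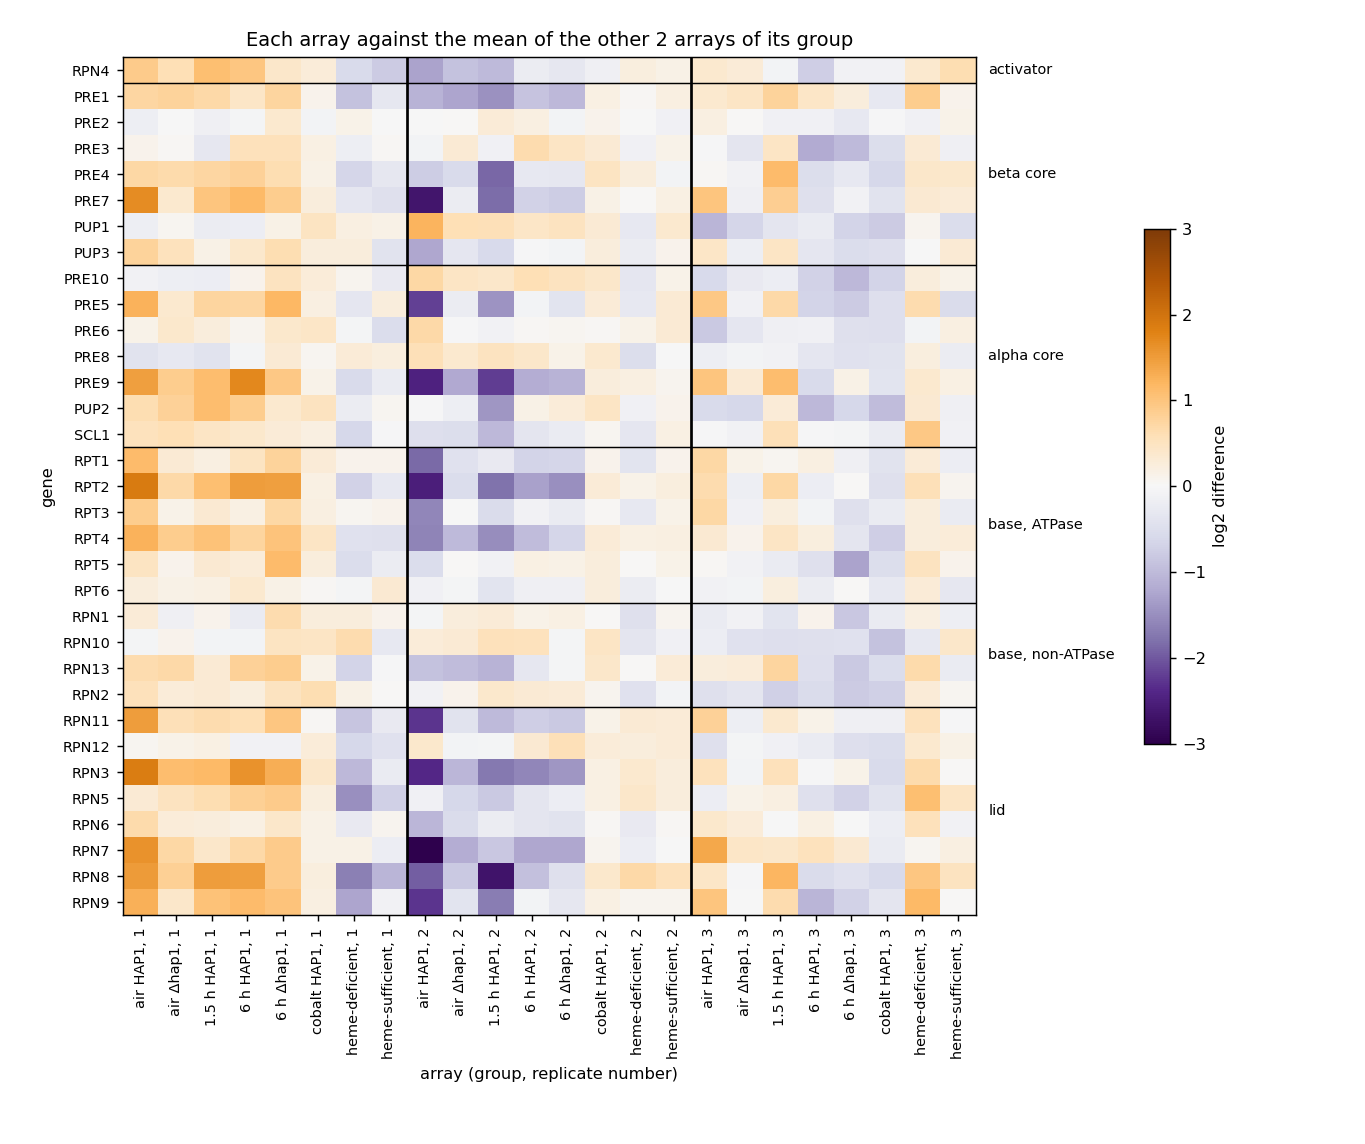
Deviation (colour) of each of the 33 genes (vertical axis) on each of the 24 arrays (horizontal axis) from the mean of the other 2 arrays of its group, in log2 units. The replicate 2 array of aerobic HAP1 cells has 15 subunits more than 1 below that mean.

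The subunits differed widely in how well their replicates repeated. The mean SD within the L51 groups was 0.12 for PRE2, 0.16 for RPT6 and 0.22 for RPN12, and 0.92 for RPN3, 0.89 for PRE9, 0.86 for RPT2 and 0.84 for RPN8. The replicate 2 array of aerobic HAP1 cells had 15 of 32 subunits more than 1 log2 unit below the mean of the other 2 arrays, and 33.5% of all genes were as low. The lowest of these were RPN7 (−2.98), PRE7 (−2.66), RPT2 (−2.53), PRE9 (−2.46) and RPN3 (−2.41), while PUP1 stood 1.24 above. The same subunits were low on other replicate 2 arrays: across the 32 subunits, which are not independent, the deviations on that array correlated at 0.81 with those at 6 h in HAP1 cells, 0.85 with those at 6 h in Δhap1 cells, 0.74 at 1.5 h and 0.70 in aerobic Δhap1 cells. With cobalt the value was 0.21. On the replicate 1 heme-deficient array, RPN8 (−1.65), RPN5 (−1.50), RPN9 (−1.24) and RPN3 (−1.03) were below, 4 of 32 against 5.73% of all genes. The log2 difference between the 3′ and 5′ probe sets of ACT1, a sign of RNA quality, ran from 0.10 to 0.28 over the L51 arrays and was 0.28 on the replicate 2 array of aerobic HAP1 cells. Its part in these deviations was not tested.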

How the data were processed

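RNA from 3 batches of cells per group was hybridized to 24 Affymetrix arrays. The authors summarised the arrays with GCOS and RMA and deposited linear intensities, whose log2 was taken here. Members and gene lists were chosen with earlier results of these data known. One probe set per gene, that with the highest mean, was kept for 5449 genes (L51) and 5656 genes (MHY100).

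Log2 values were fitted with limma 3.58.1 in R 4.3.3, over all 18 L51 arrays with the replicate number as a block, or over the 6 MHY100 arrays without one, and p-values were adjusted by Benjamini-Hochberg over all genes of a set (threshold 0.05). The block follows the study's fold changes, taken between an array and the same-numbered array of aerobic HAP1 cells. Deviations from group means of same-numbered L51 arrays had a median correlation of 0.56, 0.71 and 0.25 for replicates 1, 2 and 3 (15 pairs each, −0.44 to 0.87). Unadjusted p-values are given where stated. All 33 members are accounted for. The rule was to name subunits that passed, or else the 2 highest and 2 lowest per comparison, the catalytic subunits and RPN11. Not all of these were named in every comparison, and some others were. Of the other lists, named are members that passed and UMP1, UBR2, UBI4 and CDC48. The fits were run on simulated arrays with known changes and independent noise, without replicate or round effects. Those runs cannot show how the fits handle such effects. Alternatives were scaling, an offset, filters, probe set means, array weights, blocks, and leaving out arrays. The number of arrays limits the precision. Labels of one heme-sufficient array disagree on its replicate number, which was taken from the title.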

Additional observations from a re-analysis of the deposited data

Results flagged for a closer look

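The change without oxygen differed between the 2 times, tested within the fit over all L51 arrays, for 5 genes of the module and its lists, in a comparison in which 15.3% of all genes were called. At 6 h against 1.5 h RPN10 differed by −0.84 on the log2 scale, UBR2 by −1.16 and RAD23 by −0.95. UBC5 was higher at 6 h by 1.36 and UBI4 by 0.89. RPN10 and UBR2 had same-numbered differences of one sign on all 3 pairs, and RAD23 and UBI4 did too, while UBC5 was higher in 2 of 3 pairs. Groups of 3 arrays were not tested for outlying samples.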

How the results depend on the processing

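No called value changed direction in the alternatives run. The subunit median, which has no test, crossed 0 at 6 h in HAP1 cells (−0.14 to 0.18), with cobalt (−0.13 to 0.31) and for the loss of HAP1 at 6 h (−0.13 to 0.041). At 1.5 h, 3 subunits were called with array weights (PRE2, RPN2 and RPN10, all higher, while 18.9% of all genes were called higher), 1 when the third replicates of cobalt and of HAP1 cells at both anaerobic times were left out together (with 3.58% of all genes higher), and 0 to 1 when 1 array was left out; without the 1.5 h replicate 3 array alone it was RPN10 (with 4.06%). The subunit median there was 0.035 with array weights and 0.052 to 0.50 with 1 array left out, and RPN4 differed by 0.75 (limma adjusted p = 0.0061) with array weights. At 6 h array weights called 3 subunits lower in HAP1 cells (RPN3, RPN11 and RPT2, with 27.7% of all genes) and 4 lower in Δhap1 cells (SCL1, RPN3, RPN11 and RPT2, with 32.8%), where a fit of the compared groups alone called 3 (RPN3, RPN8 and RPT2, with 15.3%). Between 6 h and 1.5 h, 0 subunits were called without the replicate block, in the fit of the compared groups alone and with the round as a block, 5 were with array weights (RPN1, RPN10, RPN11, RPT2 and RPT4, with 32.3% of all genes lower), and 0 to 1 with 1 array left out.

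The replicate numbers of the heme arrays did not pair them clearly, with correlations of deviations of 0.45, 0.43 and −0.03. With the replicate block 3 subunits were called lower in heme deficiency (RPN5, RPN8 and RPN12, with 5.76% of all genes), and with the round as a block 7. RPN4 changed sign, with no call, in 3 settings of the HAP1 loss at 6 h (to −0.22), in 2 of the genotype difference (to 0.08) and with array weights under cobalt (−0.00084). Single genes were no longer called in 12 of 16 settings (RAD6), 7 of 14 (TMA17), 7 of 15 (UBR2), 7 of 16 (RPN10 and UBC5) and 8 of 16 (RAD23 and UBI4). The cause was not tested. Promoter motifs were not analysed here.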
